A study of Homo sapiens with 6 samples.

Results

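Antisense RNAs are transcripts of the strand opposite to a named gene, and their gene symbols join the name of that sense gene to the letters AS and a digit. Of 60708 genes in the count table, 1545 carried such a symbol, and 257 of them formed the pairs described here. These 257 were selected on their read counts: the antisense RNA and a gene with the sense symbol both held 10 or more reads in all 6 samples. The selection used the level in every sample and not the difference between the groups, but a minimum in every sample also removes RNAs that were nearly silent in 1 group. Of the other antisense symbols, 621 held no read in any sample. A further 45 reached the minimum while their sense gene did not, and 4 had no gene with the sense symbol in the table.

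The study compared Caki-1 cells, an established human clear cell renal carcinoma line, with and without an edit of VHL. VC cells are wild type for the edit and had been infected with the Lenti-CRISPR vector alone, and VHL-KO cells had been infected with the same kind of virus carrying an sgRNA against VHL. Both had been through lentiviral infection, with puromycin selection described for the edited cells, and RNA of 3 samples of each was sequenced. The sources describe clonal knockout lines and do not state which guide made the sequenced cells or how many clones they hold, so that an effect of the edit and a property of a clone cannot be told apart. Nothing states that the 3 samples of a group came from separate cultures, and p-values therefore measure the spread between these samples, which may be technical. The samples held from 22628246 to 34881739 gene reads each.

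An antisense RNA can share exons with its sense gene, lie inside an intron of it, or start beside its promoter and run the other way. Members of this class are known to act on the gene they overlap, through chromatin, transcription of the shared DNA or pairing of the RNAs, and others act elsewhere or have no known role. Many are short-lived nuclear RNAs that the RNA exosome degrades. VHL is the substrate receptor of a ubiquitin ligase that marks the HIF alpha proteins for degradation, and HIF activates genes of glucose use, oxygen supply and growth.

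Sequence around the start sites is shown for 3 pairs: HIF1A with HIF1A-AS3, whose changes were the most opposed, SLC2A1 with SLC2A1-AS1, the pair in the list of HIF target genes, and ADAMTS9-AS2. Each run holds the 250 bases before an annotated start, 5′ to 3′ on the strand of the named gene, from RefSeq on GRCh38.p14, whose starts can differ from those of GENCODE. Capitals mark ACGTG and GCGTG, the core letters of a hypoxia response element, on either strand, where they read CACGT and CACGC. The palindrome CACGTG holds ACGTG on both strands. The HIF1A window is chr14:61695263-61695512 on the plus strand, that of HIF1A-AS3 is chr14:61751098-61751347 on the minus strand, that of SLC2A1 is chr1:42958869-42959118 on the minus strand and that of ADAMTS9-AS2 is chr3:64684620-64684869 on the plus strand.
HIF1A: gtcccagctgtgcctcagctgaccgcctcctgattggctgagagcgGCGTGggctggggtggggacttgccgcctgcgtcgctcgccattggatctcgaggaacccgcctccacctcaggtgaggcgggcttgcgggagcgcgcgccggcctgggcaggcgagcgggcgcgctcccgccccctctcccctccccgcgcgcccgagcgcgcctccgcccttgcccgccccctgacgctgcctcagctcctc
HIF1A-AS3: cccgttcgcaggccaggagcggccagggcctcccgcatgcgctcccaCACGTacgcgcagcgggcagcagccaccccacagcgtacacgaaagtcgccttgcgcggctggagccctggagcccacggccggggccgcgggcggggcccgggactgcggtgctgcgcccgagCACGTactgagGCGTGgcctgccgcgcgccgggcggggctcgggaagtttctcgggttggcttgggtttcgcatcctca
SLC2A1: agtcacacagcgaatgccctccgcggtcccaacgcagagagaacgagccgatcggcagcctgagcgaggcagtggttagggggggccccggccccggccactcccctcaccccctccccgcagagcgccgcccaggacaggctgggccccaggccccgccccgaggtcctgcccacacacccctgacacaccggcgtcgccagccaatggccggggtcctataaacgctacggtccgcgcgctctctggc
ADAMTS9-AS2: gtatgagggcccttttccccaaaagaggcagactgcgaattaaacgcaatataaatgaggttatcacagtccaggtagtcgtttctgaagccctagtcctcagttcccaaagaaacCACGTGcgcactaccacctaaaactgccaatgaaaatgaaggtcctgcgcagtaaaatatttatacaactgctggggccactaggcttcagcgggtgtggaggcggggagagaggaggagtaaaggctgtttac
The HIF1A-AS3 window held 3 of these motifs, that of HIF1A held 1, and that of SLC2A1, which also spans the start of SLC2A1-AS1, held none. The ADAMTS9-AS2 window held the palindrome once. Of all 35116 windows of this length in the table, 43.2% held at least 1. Windows were found for 204 of the 257 antisense RNAs, and 63.2% of these held a motif, against 55.3% of 217 windows of sense genes. Among the antisense windows a motif was in 40 of 68 for RNAs higher in VHL-KO cells by the test below, 12 of 16 for those lower and 77 of 120 for those without a call. A match is a run of letters and not a site of binding.

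The edited gene was counted first. VHL held 1454, 1124 and 1522 reads in the VC samples and 929, 657 and 650 in the VHL-KO samples, or 40.2 ± 2.38 and 31.9 ± 2.49 CPM, the reads of a gene relative to its library after TMM scaling (mean ± SD, n = 3 each). The samples did not overlap between the groups. VHL changed by -0.33 on the log2 scale, with a standard error of 0.11 and an edgeR adjusted p of 0.0109, and adjusted p values below likewise come from the quasi-likelihood test of edgeR, adjusted by Benjamini-Hochberg, unless DESeq2 is named. Ranges over the alternatives include DESeq2. The edgeR adjusted p was 0.0862 when VC replicate 1 was left out and 0.0621 when VHL-KO replicate 2 was, within a range of 0.000293 to 0.231 over all alternatives, so that the mRNA level alone is a weak check of the labels. Of 33 HIF target genes, 28 were higher and 4 lower in VHL-KO cells at an adjusted p under 0.05, where 28.5% and 31.2% of all 17401 genes tested were higher and lower. NDRG1, a stress-response gene, went from 12.1, 11.1 and 11.7 CPM in VC to 729, 774 and 781 in VHL-KO samples, and CA9, a membrane carbonic anhydrase, held 0, 0 and 2 reads in the VC and 288, 247 and 233 in the VHL-KO samples. ALDOC (4.28) and CA12 (3.94) followed in size on the log2 scale.

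Most markers of the labelled cell type were present, but PAX2, a kidney lineage factor, held no read in any sample. PAX8, another such factor, stood at 428 ± 38.9 CPM in VC and 614 ± 14.2 CPM in VHL-KO cells, and KRT8 and VIM were also abundant. The kidney epithelial markers that changed most were CDH16, a kidney cadherin (3.42), LHX1 (-1.67), EPCAM (-1.42) and KRT19 (0.96), the last with an edgeR adjusted p of 0.0488 that lay between 0.0587 and 0.138 when any sample but VHL-KO replicate 2 was left out, 0.558 with GC and length offsets, and over a range of 0.0114 to 0.583 in the alternatives. Of 10 immune markers 2 reached 10 reads in any sample, with summed reads of 68, 64 and 64 in the VC group and 136, 122 and 87 in the VHL-KO group. CD14 was the most abundant of them and was higher in VHL-KO cells (edgeR adjusted p = 7.00e-06). Its log2 fold change was 1.47, or 0.97 with GC and length offsets. PTPRC and CD3E stayed under the minimum. Of 6 endothelial markers only PECAM1 was tested, with 1, 5 and 0 reads in VC and 14, 7 and 9 reads in VHL-KO cells. Its edgeR adjusted p was 0.0117, and 0.0648 without VC replicate 3 (range 0.00214 to 0.0648). KDR, below the minimum, went the other way, with 4, 0 and 9 reads in the VC group against none in any VHL-KO sample. Reads summed over the 6 markers overlapped between the groups, at 8, 5 and 9 for VC and 19, 7 and 10 for VHL-KO. Of 7 fibroblast markers the tested ones were COL1A1 and PDGFRB, both lower in VHL-KO cells (log2 fold changes -0.42 and -1.94, the former -0.73 with GC and length offsets). PAX2, PAX8, KRT8, PTPRC and CD3E were chosen outside the naming rule, as was PTOV1-AS2 below. The part of these markers in the results below was not tested.

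The antisense RNAs were higher more often than lower in VHL-KO cells. At an adjusted p under 0.05, 91 of 257 were higher (35.4%) and 20 were lower (7.78%), and 146 did not pass. Among all 13545 genes with 10 or more reads in every sample, 30.4% were higher and 36.6% lower in the same test. At least 2-fold changes that also passed were seen for 47 upward and 9 downward, against 11.7% and 12.3% of those 13545 genes. The CPM of the groups did not overlap for 109 antisense RNAs that were higher and 33 that were lower, against 33.0% and 38.1%. In RNA from a whole culture, fewer cells with a transcript and less of it per cell cannot be told apart.

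The median log2 fold change of the antisense RNAs was 0.32, with quartiles at -0.12 and 0.83, against -0.01 for all genes tested. Their sense genes had a median of -0.13, with 79 higher and 109 lower. The split of antisense calls depended on scaling: with library size alone it was 77 higher and 33 lower, a share of 70.0% higher in place of 82.0%. That scaling moved the median of all genes to -0.20 and that of the antisense RNAs to 0.13, and upper quartile factors moved them to 0.10 and 0.43.

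Antisense RNAs were not alone in this. Of 1004 other long noncoding RNA genes with the same read minimum, 43.0% were higher and 8.17% lower, with a median log2 fold change of 0.53. Of 11678 protein-coding genes, 28.9% were higher and 40.9% lower, with a median of -0.14. The median of the antisense RNAs lay between those of these classes, and that of their sense genes lay near that of the protein-coding genes.

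**Figure D1:**
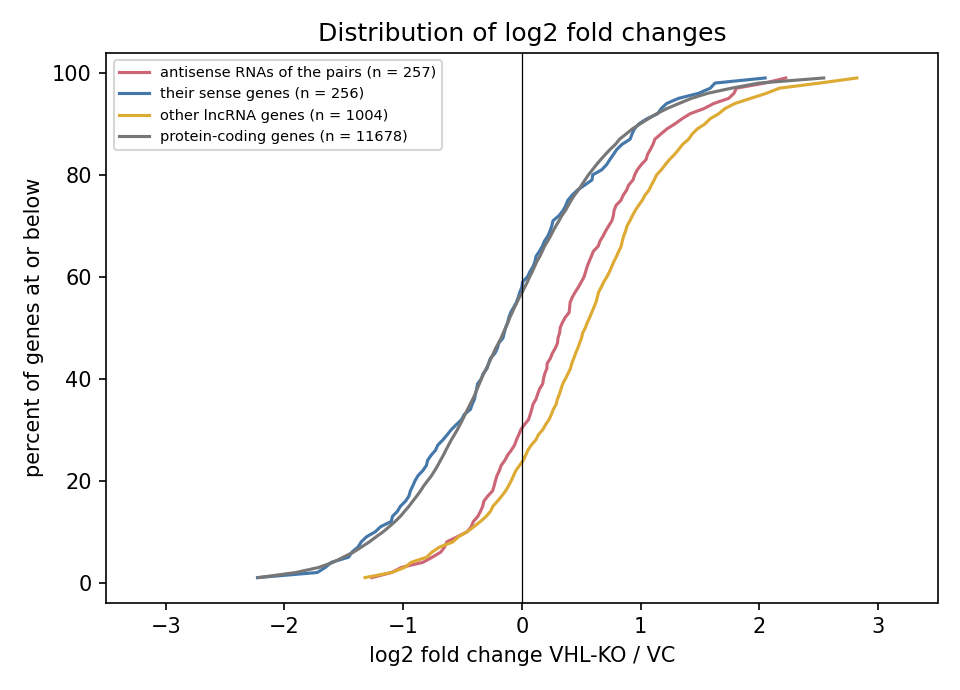
Percent of genes (vertical axis) at or below each log2 fold change of VHL-KO over VC cells (horizontal axis), with a line for each class, for genes with 10 or more reads in all samples. The median is 0.32 for the 257 antisense RNAs, near -0.13 for their sense genes and 0.53 for the other long noncoding RNA genes, and the lines of the antisense RNAs and of the other long noncoding RNA genes cross in the lower tail.

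Genes of RNA decay, double-stranded RNA, PRC2 and DNA methylation were also counted. Of 24 genes of RNA decay and double-stranded RNA, none was higher and 19 were lower in VHL-KO cells, with a median log2 fold change of -0.66. Of all genes tested 28.5% were higher and 31.2% lower, and of the protein-coding genes above 28.9% and 40.9%. At an unadjusted p under 0.05 the number higher was 0 in edgeR, and with DESeq2's adjusted p it was 0. MTREX, the helicase that feeds RNA to the nuclear exosome, was at 52.0 ± 9.10 CPM in VC and 21.2 ± 2.19 in VHL-KO samples (log2 fold change -1.29, standard error 0.13, adjusted p = 4.86e-09). The exosome subunit EXOSC3 (-1.12), the nuclear exonuclease XRN2 (-1.16) and the helicase DHX9 (-1.26) were lower on the log2 scale as well. Of 16 genes of PRC2 and DNA methylation, 2 were higher and 10 lower (against the same 28.5% and 31.2% of all genes tested), led by UHRF1 (-2.77), which guides the maintenance methyltransferase, and DNMT1 itself (-2.20), then RBBP7 (-1.33) and EED (-1.23), which belong to PRC2. Under offsets per library for GC content and length the values were -0.75 for MTREX, -0.74 for EXOSC3, -0.81 for XRN2, -0.91 for DHX9, -2.85 for UHRF1, -2.30 for DNMT1, -0.92 for RBBP7 and -0.77 for EED. Whether these genes bear on the antisense RNAs was not tested.

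The antisense RNAs were thinly counted. Their median CPM was 2.48, and the reads of an antisense RNA came to a median of 8.10% of those of its sense gene (quartiles 2.57% and 30.5%). Per kilobase of the longest transcript the median was 15.0%, and 42 antisense RNAs stood above their sense gene on that scale. The 95 pairs in which both genes held 50 or more reads in all samples had 49 antisense RNAs higher (51.6%) and 7 lower, with a median log2 fold change of 0.49. Of all 10918 genes with 50 or more reads in all samples, 30.5% were higher and 39.9% lower. At the edge of the selection, ARF4-AS1, opposite a small GTPase gene, held 13, 10 and 14 reads in the VC and 10, 14 and 14 in the VHL-KO samples, B4GALT1-AS1 held 10, 21 and 28 and 10, 15 and 23, and EIF1B-AS1 held 30, 10 and 29 and 23, 21 and 30. Just outside it, each with a lowest count of 9, ABHD11-AS1 held 12, 9 and 21 reads in the VC and 102, 119 and 67 in the VHL-KO samples, HELZ-AS1 held 28, 19 and 9 and then 50, 17 and 41, and ILRUN-AS1 held 14, 23 and 9 and then 25, 22 and 23.

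Whether a read was assigned by strand decides what these counts mean. The strand setting of the counting is not given in the sources used here. Without it, whether the counting separated reads of an antisense RNA from those of the sense gene it overlaps is not known. The values of overlapping pairs are therefore uncertain. By GENCODE 44 on GRCh38, 194 antisense RNAs shared exonic bases with the sense gene, with a median of 10.1% of their own exonic bases, 32 overlapped its body without sharing exons, 27 lay head to head with it, 3 lay over 5 kb away, and FRMD6-AS1 was not placed. As a measurement that bears on strand, 222 of 230 genes lying at least 95% inside the exons of a gene with 1000 or more reads in all samples on the same strand held no read (96.5%). Where the containing gene was on the opposite strand, 28 of 171 held none (16.4%). Nested genes were thus empty far more often on the strand of the containing gene than opposite it. The strand setting itself was not tested.

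The calls were spread over these arrangements, beside 30.4% higher and 36.6% lower among all genes with the same read minimum. Among the 194 pairs with shared exonic bases, 68 antisense RNAs were higher and 15 lower, with a median log2 fold change of 0.32. Among the 32 that shared none inside the gene body, 12 were higher and 2 lower (0.23), and among the 27 head to head, 11 were higher and 2 lower (0.59). In 22 of those 27 the genes lay under 200 bases apart. Their difference between arrangements was not tested.

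The changes of antisense RNA and sense gene were then set side by side. Both passed the test in 87 pairs, 55 in the same direction (21.4% of 257) and 32 in opposite directions (12.5%). Among 3691 other pairs of genes on opposite strands within 5 kb of each other, 29.4% were called in the same direction and 15.4% in opposite directions. These neighbours were not matched to the antisense pairs for depth. In the 95 antisense pairs with 50 or more reads in all samples, the shares were 23.2% and 21.1%. Of pairs with both genes called, the direction was shared by 63.2% of the antisense pairs and 65.6% of the other neighbours. The Spearman correlation of both log2 fold changes was 0.28 over the 257 pairs and 0.23 over the other neighbours. It describes these 6 libraries, since pairs share the libraries, their depth and the base composition of the locus.

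Base composition moved with the sense genes more than with the antisense RNAs. The log2 fold change followed the GC content of the gene's own transcript with a Spearman correlation of 0.45 for sense genes and 0.11 for antisense RNAs. Over 13802 genes of the series it was 0.39. The antisense RNAs had a median of 2.48 CPM against 27.2 for the sense genes, and the part of depth in this contrast was not tested. With offsets per library that remove the trend with GC content and transcript length, 44 pairs were called in the same direction and 42 in opposite directions, in place of 55 and 32. The correlation within pairs was then 0.18, and 104 antisense RNAs were higher and 25 lower. In the pairs whose sense gene was higher, the median log2 fold change of the antisense RNA was 0.58 (79 pairs), in those whose sense gene was lower it was 0.19 (109), and in the rest it was 0.32 (69).

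**Figure D2:**
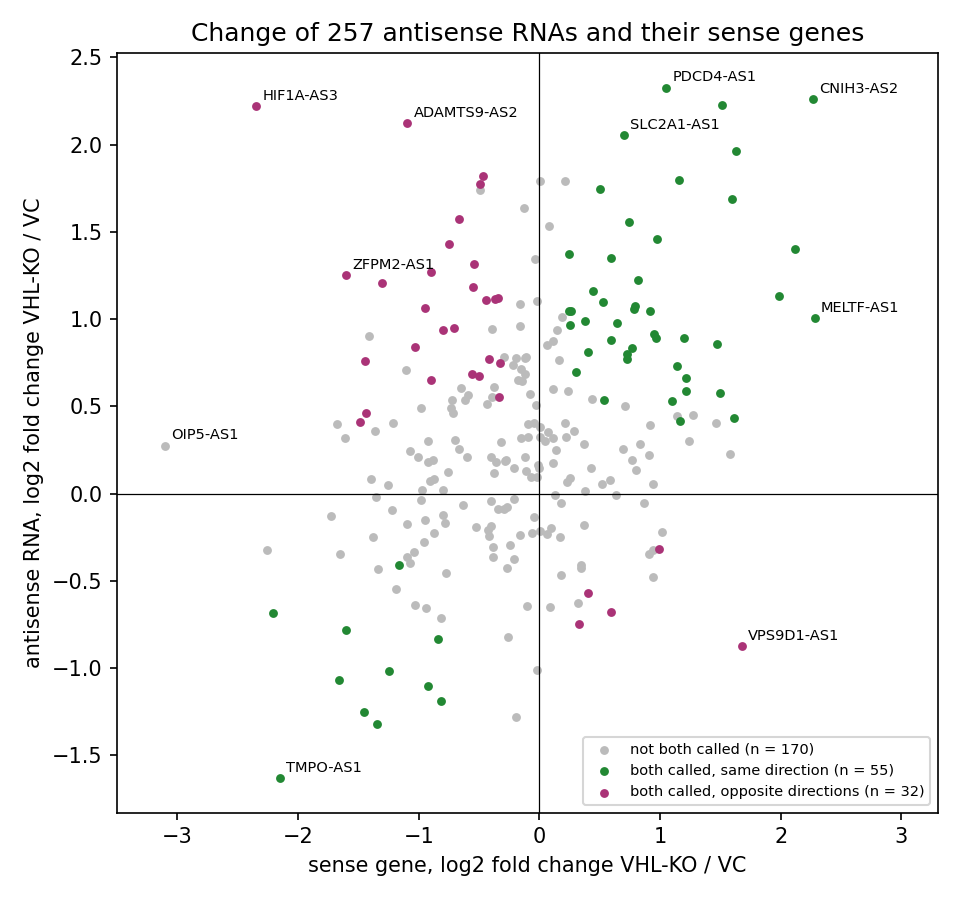
Each point is a pair, with the log2 fold change of the sense gene (horizontal axis) and of the antisense RNA (vertical axis), VHL-KO over VC cells. Pairs with both genes past the threshold are coloured, 55 in the same direction and 32 in opposite directions, of which 27 have the antisense RNA higher.

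The pair with the most opposed changes was HIF1A-AS3 and HIF1A, the alpha subunit of the hypoxia-inducible factor. HIF1A-AS3 lies at chr14:61707298-61751163 on the minus strand of GRCh38, with 299 exonic bases shared with HIF1A. It stood at 1.29, 0.740 and 1.21 CPM in the VC samples and 4.72, 4.82 and 5.77 CPM in the VHL-KO samples, from 44, 22 and 46 and 126, 104 and 123 reads. Every VHL-KO sample was above every VC sample (log2 fold change 2.22, standard error 0.24, adjusted p = 2.33e-08). HIF1A itself went from 62.3, 53.5 and 81.1 to 11.8, 14.7 and 12.3 CPM, with no overlap (-2.35, adjusted p = 6.42e-13). These are RNA levels, and the paper reports from immunoblots that the HIF1A protein accumulated in VHL-KO Caki-1 cells. The log2 ratio of antisense to sense reads within a library, which needs no scaling between libraries, was -5.95 ± 0.31 in VC and -1.34 ± 0.26 in VHL-KO samples (mean ± SD, n = 3 each). This ratio does not remove a trend with GC content or length. Under the offsets for these, the log2 fold change was 2.65 for HIF1A-AS3 and -1.78 for HIF1A. Another antisense RNA of the locus, HIF1A-AS1, chosen after its values were seen, held 17, 7 and 16 and 4, 8 and 15 reads and overlapped between the groups.

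SLC2A1, which encodes the glucose transporter GLUT1, was the only gene of the HIF target list with an antisense RNA among the 257. SLC2A1-AS1 lies head to head with it at chr1:42959049-42996814, 155 bases away, and GENCODE 44 names it a divergent transcript, SLC2A1-DT. It stood at 1.26, 0.673 and 1.05 CPM in VC and 5.02, 3.89 and 3.61 CPM in VHL-KO samples, without overlap (log2 fold change 2.06, standard error 0.26, adjusted p = 2.63e-07). SLC2A1 stood at 277, 325 and 278 and 457, 461 and 508 CPM, also higher in every VHL-KO sample (0.70, adjusted p = 4.10e-07). Per kilobase the antisense RNA amounted to 0.692% of SLC2A1.

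Other antisense RNAs rose with their sense gene. PDCD4-AS1, beside a gene for an inhibitor of translation initiation, had a log2 fold change of 2.33 (standard error 0.30), or 1.76 under the GC and length offsets, from 0.908, 0.505 and 0.606 CPM in VC to 2.55, 4.68 and 3.05 in VHL-KO samples, while PDCD4 changed by 1.05. CNIH3-AS2 went from 1.08, 1.41 and 1.24 to 6.96, 5.93 and 4.97 CPM and CNIH3, an auxiliary protein of AMPA receptors, from 3.10, 4.27 and 3.13 to 16.9, 16.0 and 17.5. Both changed by nearly the same log2 amount, 2.26 and 2.27, and their ratio overlapped between the groups. IGFBP7-AS1 also rose (1.96, with 1.63 for IGFBP7, a secreted IGF-binding protein). For these 3 pairs the groups did not overlap in either gene, and the adjusted p of the antisense RNA lay between 4.60e-09 and 4.51e-07.

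The largest falls of antisense RNAs came mostly with a lower sense gene. Of all 20 antisense RNAs called lower, 11 had a lower sense gene, 5 a higher one and 4 one without a call. Among all 257 pairs 42.4% had a lower sense gene. TMPO-AS1 stood at 8.84, 8.85 and 7.11 CPM in VC and 2.17, 3.61 and 2.25 CPM in VHL-KO samples (log2 fold change -1.63, standard error 0.21, adjusted p = 2.81e-07). TMPO, which encodes lamina-associated polypeptides, went from 96.6, 89.8 and 122 to 21.3, 23.4 and 24.9 CPM (-2.15). CDK6-AS1 and CDK6, a kinase of the cell cycle's first phase, both fell (-1.32 and -1.35, and under the GC and length offsets -1.70 and -0.86). TENM3-AS1 and the teneurin gene TENM3 fell as well (-1.25 and -1.45). PARD6G-AS1 fell with the polarity gene PARD6G (-1.19 and -0.82). FOXD2-AS1 (-1.10) fell with the forkhead gene FOXD2 (-0.93), the latter with an edgeR adjusted p of 0.0201 that was 0.0887 without VC replicate 1, 0.103 without VC replicate 3, or 0.0664 with VHL-KO replicate 2 left out (range 0.000751 to 0.103 over the alternatives). With DESeq2 the adjusted p of FOXD2 was 0.0526, and the GC and length offsets moved its log2 fold change to -1.44.

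MCM3AP-AS1 and VAC14-AS1 fell beside a sense gene that did not pass the test. The first went from 6.33, 5.28 and 5.56 to 2.32, 2.60 and 2.16 CPM (-1.28, adjusted p = 5.58e-06), while MCM3AP, a factor of mRNA export, had 48.2, 56.6 and 44.5 and 40.4, 38.0 and 51.8 CPM, overlapping between the groups. The edgeR adjusted p of MCM3AP was 0.163, and 0.0476 without VC replicate 3, or 0.0273 with VHL-KO replicate 3 left out, and 0.00980 with library size alone (range 0.00980 to 0.562). VAC14-AS1 fell (log2 fold change -1.01), with -0.02 for VAC14, a scaffold of the PIKfyve lipid kinase complex (edgeR adjusted p = 0.881, range 7.51e-05 to 0.987), a value near 0 that turned to 0.09 with upper quartile factors. With the GC and length offsets VAC14 passed as lower (-0.31, edgeR adjusted p = 0.000174).

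**Figure D3:**
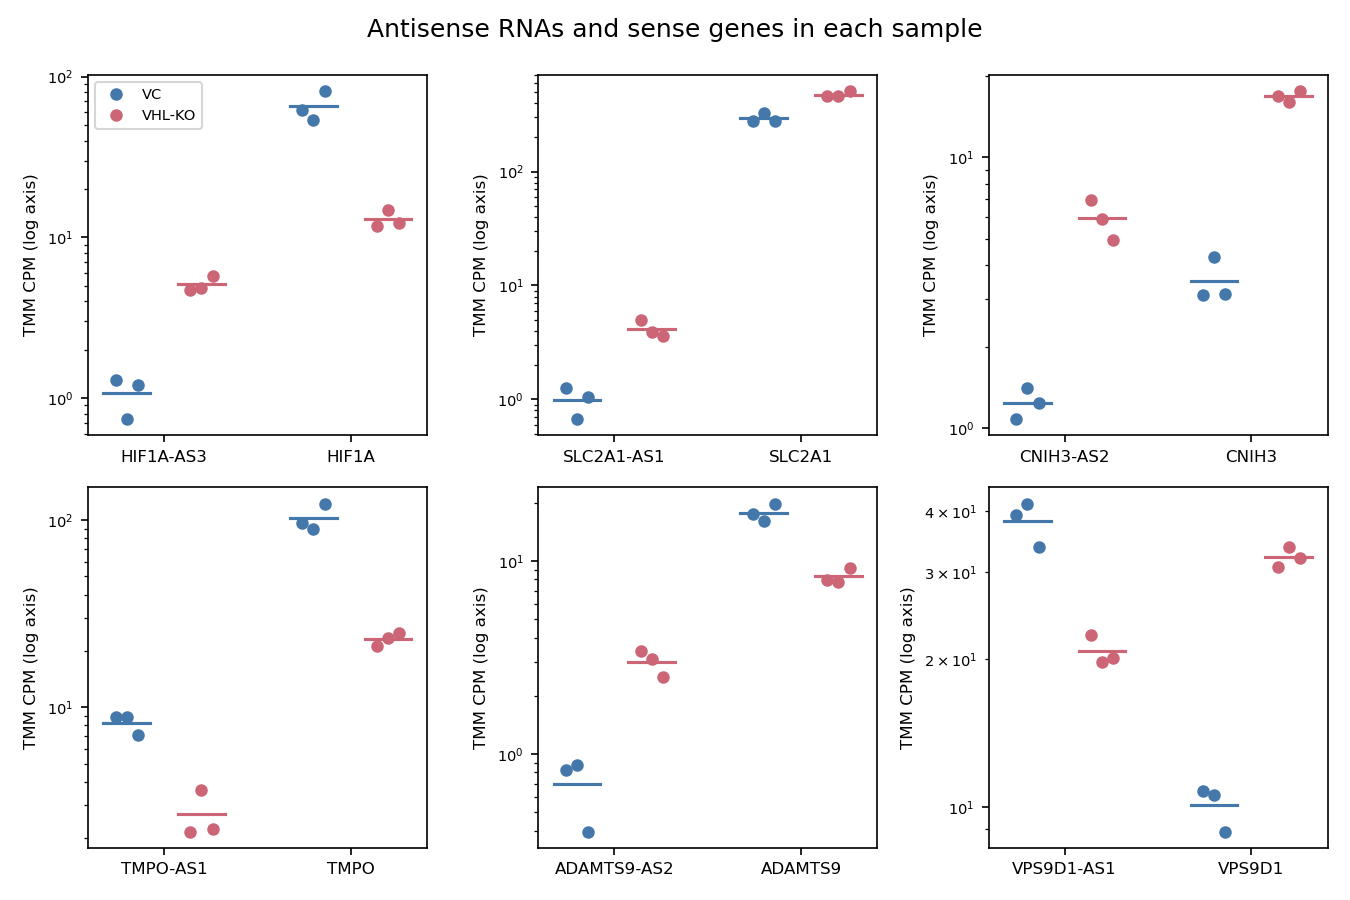
TMM CPM on a log axis for 6 antisense RNAs and their sense genes, 1 point per sample and a bar at the mean of the 3 samples, with VC in blue and VHL-KO in red. In none of the 12 genes do the groups overlap, and the axis does not correct for gene length. HIF1A-AS3 and ADAMTS9-AS2 are higher and their sense genes lower in VHL-KO cells, and VPS9D1-AS1 is lower with its sense gene higher.

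In 27 of the 32 pairs called in opposite directions the antisense RNA was higher and the sense gene lower. Among all antisense RNAs with a call, 82.0% were higher, and of all sense genes 79 were higher and 109 lower. Whether the opposed pairs depart from this was not tested. ADAMTS9-AS2, at chr3:64684909-65053439 on the plus strand, shares no exonic base with ADAMTS9, a secreted metalloprotease of the matrix. It stood at 0.820, 0.875 and 0.395 CPM in VC and 3.41, 3.11 and 2.49 CPM in VHL-KO samples (log2 fold change 2.12, standard error 0.31, adjusted p = 1.80e-06). ADAMTS9 went from 17.4, 16.0 and 19.7 to 7.97, 7.79 and 9.19 CPM (-1.09), and neither gene overlapped between the groups. ZFPM2-AS1 (1.25) was higher as ZFPM2, a cofactor of GATA factors, was lower (-1.60), again with no shared exonic base.

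Other pairs of this kind shared exonic bases. SGMS1-AS1 rose by 1.21 and SGMS1, a sphingomyelin synthase, fell (-1.31). WWTR1-AS1 went from 0.996, 1.18 and 1.05 to 2.62, 2.46 and 2.72 CPM (1.27) and WWTR1, the Hippo pathway coactivator TAZ, from 163, 159 and 174 to 90.3, 86.2 and 90.1 (-0.89, or -0.49 under the GC and length offsets). CCDC18-AS1 rose by 1.06, while CCDC18 had 6.59, 3.06 and 8.19 and 3.48, 2.83 and 2.95 CPM, which overlap, and its fall (-0.95) did not pass with these offsets (-0.40, edgeR adjusted p = 0.125, range 1.83e-06 to 0.125). The log2 fold change of CCDC18 ran from -1.24 to -0.63 with 1 sample left out. NALCN-AS1, opposite a sodium leak channel gene, had a log2 fold change of 0.84 with an edgeR adjusted p of 0.0367 that many alternatives moved above 0.05. It lay between 0.0530 and 0.147 when any 1 VC sample or the first or second VHL-KO sample was left out (log2 fold changes 0.66 to 0.99 over all samples left out). With all samples it was 0.102 with library size alone, 0.0639 with no filter beyond 1 count and 0.0559 with the replicate number as a block (range 0.0126 to 0.147). With DESeq2 its adjusted p was 0.0604. NALCN was lower (-1.03).

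VPS9D1-AS1 had the reverse pattern with the largest changes of the 5 pairs that showed it. It went from 39.3, 41.4 and 33.8 CPM in VC to 22.4, 19.7 and 20.1 CPM in VHL-KO samples (log2 fold change -0.88, standard error 0.12, adjusted p = 6.44e-07). With the GC and length offsets its log2 fold change was -1.49. VPS9D1 went from 10.7, 10.6 and 8.90 to 30.8, 33.8 and 32.1 CPM (1.68, adjusted p = 4.49e-11). ARRDC1-AS1, opposite an arrestin-like adaptor gene, was lower (log2 fold change -0.32) with an edgeR adjusted p of 0.0301, which lay between 0.0553 and 0.135 without VC replicate 1 or 2 or any 1 VHL-KO replicate and was 0.160 with upper quartile factors (range 2.54e-05 to 0.160). ARRDC1 rose by 0.99, and the offsets gave -0.51 for ARRDC1-AS1 and 0.61 for ARRDC1. ZMIZ1-AS1, head to head with a transcriptional coactivator gene, rose by 1.82 with ZMIZ1 lower (-0.46), and was among the 8 largest rises of antisense RNAs.

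The read ratio of antisense to sense shifted upward in most pairs. It did not overlap between the groups in 153 of 257 pairs (59.5%), against 70.1% of the 3691 other neighbour pairs, which were not matched for depth. In 115 of the 153 it was higher in VHL-KO samples. The median log2 ratio over pairs was -3.84, -3.81 and -3.92 in the VC samples and -3.30, -3.22 and -3.42 in the VHL-KO samples, all 3 higher. In 79 of the 115 the sense gene was called lower, in 59 the antisense RNA was called higher, and in 27 both were. Over all 257 pairs the sense gene was lower in 109 (42.4%) and the antisense RNA higher in 91 (35.4%). Choosing pairs by a higher ratio itself favours these calls.

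The largest shift after that of HIF1A-AS3 came with a lower sense gene. OIP5-AS1, a conserved long noncoding RNA also called Cyrano, had 29.6, 21.8 and 32.3 CPM in VC and 36.3, 34.2 and 31.0 CPM in VHL-KO samples, which overlap (log2 fold change 0.27, edgeR adjusted p = 0.0713, 0.00282 without VC replicate 3, 0.0459 with the replicate block and 1.41e-07 with the GC and length offsets, range 1.29e-09 to 0.646). Its log2 fold change was 0.82 under those offsets, 0.08 with library size alone and 0.14 without VC replicate 2. OIP5, a factor that loads centromeric chromatin, went from 8.26, 7.30 and 8.51 to 0.562, 1.76 and 0.516 CPM (-3.11), and the log2 ratio from 1.78 ± 0.18 to 5.40 ± 0.97. The log2 ratio changed most in the downward direction for VPS9D1-AS1 (-2.56), PTOV1-AS1 (-1.59), MELTF-AS1 (-1.35), UBAC2-AS1 (-1.33) and ARRDC1-AS1 (-1.33). In all 5 the sense gene was higher, by 0.91 for UBAC2 to 2.28 for MELTF, the iron-binding melanotransferrin. PTOV1 rose by 0.94, but by 0.33 under the GC and length offsets. MELTF-AS1 itself rose by 1.01 (edgeR adjusted p = 0.00190), and was at 0.25 (edgeR adjusted p = 0.383 with the GC and length offsets, range 0.000173 to 0.459). PTOV1-AS1 and UBAC2-AS1 overlapped between the groups and did not pass, with an edgeR adjusted p of 0.294 and 0.270, and of 0.0437 without VHL-KO replicate 1 and 0.0235 without VHL-KO replicate 3 (ranges 0.0437 to 0.643 and 0.0235 to 0.704). PTOV1 was the only sense gene with 2 antisense RNAs in the set, and the other, PTOV1-AS2, stood at -0.32 (adjusted p = 0.284).

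**Figure D4:**
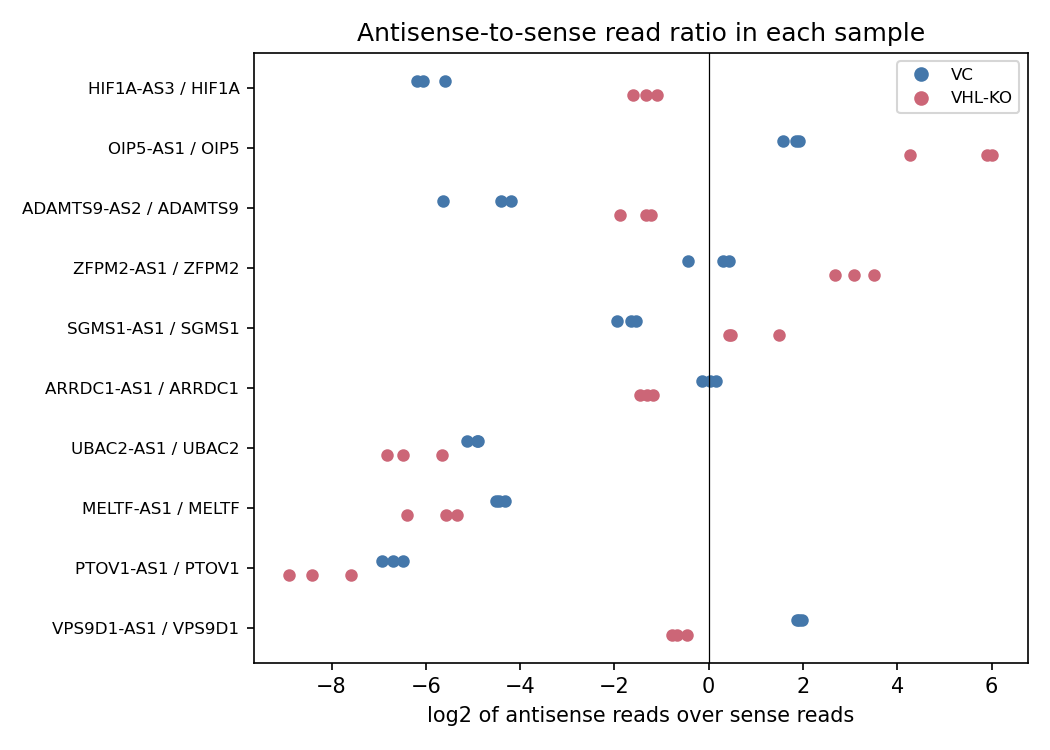
Log2 of antisense reads over sense reads in each sample, for the 5 pairs whose ratio rose most and the 5 whose ratio fell most, VC in blue and VHL-KO in red. The samples of the groups do not overlap in any of these pairs, which were chosen for that, and the shift is largest for HIF1A-AS3, from -5.95 to -1.34 on average.

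The antisense RNAs with the highest CPM differed in their changes. AFAP1-AS1, opposite the gene of an actin-binding adaptor, had 176, 189.7 and 181 CPM in VC and 158, 152 and 171 CPM in VHL-KO samples, without overlap, but did not pass (log2 fold change -0.18, edgeR adjusted p = 0.0752, 0.000467 with library size alone, range 0.000467 to 0.532). Per kilobase it stood at 314% of AFAP1, which was lower in VHL-KO cells (-0.40). VIM-AS1 had 46.8, 67.3 and 41.5 and 47.5, 67.0 and 51.7 CPM, overlapping, and VIM, the mesenchymal filament gene, did not pass either (log2 fold changes 0.10 and -0.07). Scaling turned both around, VIM-AS1 to -0.09 with library size alone and VIM to 0.04 with upper quartile factors, while VIM passed as lower with library size alone (-0.26). Without VC replicate 2, VIM-AS1 passed with an edgeR adjusted p of 0.00756 (range 0.00756 to 0.865). NOP14-AS1 went from 19.4, 22.0 and 19.2 to 51.5, 48.6 and 50.3 CPM (1.31, adjusted p = 2.37e-10), while NOP14, a factor of small ribosomal subunit assembly, was lower (-0.54).

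WAC-AS1 rose from 38.6, 32.7 and 31.3 to 53.3, 55.8 and 51.1 CPM (0.64, adjusted p = 1.46e-05), with -0.14 for WAC, which turned to 0.30 and passed with the GC and length offsets (edgeR adjusted p = 0.000369). The edgeR adjusted p of WAC was 0.225, 0.00796 with library size alone and 0.0260 without VC replicate 2 (range 0.000172 to 0.847). AGAP2-AS1 had 33.8, 38.9 and 33.9 and 49.3, 46.6 and 48.2 CPM, with a log2 fold change of 0.43 (edgeR adjusted p = 0.000909) that turned to -0.23 with the GC and length offsets (edgeR adjusted p = 0.0120, range 2.93e-05 to 0.0423). AGAP2, which encodes a GTPase-activating protein, was higher in VHL-KO cells (1.61), and per kilobase the antisense RNA stood at 13524% of it.

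Thin antisense counts beside an abundant sense gene were looked at apart. In 19 pairs the antisense RNA held under 1 read per 100 reads of its sense gene, and of these 5 were higher and none lower by edgeR, against 30.4% and 36.6% of all genes with the same read minimum (at an unadjusted p under 0.05, 0 were lower, and by DESeq2 0). In the 184 pairs with at least 2 antisense reads per 100 sense reads in every sample, a limit chosen after seeing the data, 65 antisense RNAs were higher and 18 lower, 40 pairs were called in the same direction and 25 in opposite directions. The other neighbour pairs, not matched for depth, had 29.4% and 15.4%. In the 62 pairs that share no exonic base, 23 were higher and 5 lower, 13 pairs were called in the same direction and 8 in opposite directions.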

How the data were processed

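The deposited table holds 1 count per gene and sample. By the submitters' processing notes the authors trimmed reads with Trim Galore and cutadapt, aligned them to GRCh38.p13 with STAR, sorted with SAMtools and counted with HTSeq. Versions, annotation release and strandedness are not given in the sources used here. Genes with 10 or more reads in any sample (17401) were fitted with edgeR 4.0.16 in R 4.3.3, using TMM scaling, the quasi-likelihood F test and Benjamini-Hochberg adjustment over all 17401, with a threshold of 0.05. The read ratio of a pair is the log2 of antisense over sense reads in each sample. Positions, GC content and transcript length came from GENCODE 44 (longest transcript) and promoter windows from RefSeq. The scripts were tested on simulated data.

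Named by rule were the 8 largest rises and the 8 largest falls past the threshold without overlap between groups, the 8 pairs with the most opposed changes, the 5 antisense RNAs with the most reads, the pairs with a HIF target as sense gene, the 5 largest rises and 5 largest falls of the ratio, the members just inside and outside the minimum, and up to 4 genes of each list; some genes that the rule names are not reported here. Alternatives were DESeq2 1.42.0, relative log expression, upper quartile and library size scaling, no filter beyond 1 count, 10 reads in every sample, each sample left out, the replicate number as a block, offsets for GC content and length, and narrower sets of pairs. The limit of 2 antisense reads per 100 sense reads and the set without divergent transcripts were added after seeing the data. The members and lists were chosen with earlier results of these data known. In the lists, 28 of 33 HIF target genes, 0 of 24 RNA decay genes, 2 of 16 genes of PRC2 and DNA methylation, 5 of 11 tested kidney epithelial markers, 1 of 2 immune, 1 of 1 endothelial and 0 of 2 fibroblast markers were higher. In the same order, 4, 19, 10, 3, 0, 0 and 2 were lower. Of all genes tested, 28.5% were higher and 31.2% lower. DESeq2 called 4 kidney epithelial markers higher.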

Additional observations from a re-analysis of the deposited data

How the results depend on the processing

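The 90 genes named by rule were followed through 15 alternative settings each, in 1346 values where they were tested. Of these, 1270 kept direction and side of the threshold, 36 kept only the direction, 20 newly passed and 20 reversed, and 71 genes kept all values. Over DESeq2, 3 other scalings, 2 other filters, the replicate block and the GC and length offsets, antisense RNAs higher in VHL-KO cells numbered 77 to 110 and those lower 18 to 33. Pairs called in the same direction numbered 44 to 60 and those in opposite directions 30 to 42, with 44 and 42 under the GC and length offsets (44 and 41 with the block added). Leaving out 1 sample gave 78 to 100 higher and 17 to 22 lower, a median of 0.33 to 0.40, 42 to 55 pairs in the same and 26 to 38 in opposite directions, and a ratio without overlap in 163 to 178 pairs, where fewer samples make overlap rarer. HIF target genes higher numbered 28 in each of these, and 27 with 10 reads in every sample.

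The median of the antisense RNAs moved to 0.43 with upper quartile factors and to 0.13 with library size alone, which called 33 lower, since these factors shift every gene. It was 0.49 in the 95 pairs with 50 or more reads, where 49 were higher, 7 lower, 22 pairs in the same and 20 in opposite directions, and 68 ratios without overlap, from fewer pairs. In the 62 pairs without a shared exonic base the counts were 23, 5, 13, 8 and 40, again from fewer pairs. The Spearman correlation of antisense and sense changes was 0.176 with GC and length offsets, 0.178 with these and the block, and 0.255 to 0.305 with 1 sample left out (0.258, 0.305 and 0.255 without VC replicates 1, 2 and 3, 0.264 without VHL-KO replicate 1). It was 0.282 without shared exons, 0.263 for pairs on opposite strands within 5 kb, 0.196 with 50 or more reads, and 0.265 over antisense RNAs of every depth past the filter (521, of which 462 had a tested sense gene). With limits chosen after seeing the data it was 0.309 (at least 2 antisense reads per 100 sense reads) and 0.253 (without members that GENCODE names divergent or does not place). The cause was not tested.

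VHL kept its direction in every setting and did not pass with upper quartile factors (-0.22), with GC and length offsets (-0.12), with these and the block (-0.12), or without VC replicate 1 (-0.28) or VHL-KO replicate 2 (-0.30), with -0.39 to -0.28 over all samples left out. AGAP2-AS1 reversed to -0.23 with the offsets (-0.23 with the block added) and WAC to 0.30 (0.30). VIM turned to 0.0438 with upper quartile factors, 0.0350 with the offsets, 0.0373 with the block added, and -0.0864 to 0.00833 with 1 sample left out. VIM-AS1 turned to -0.0895 with library size alone and -0.0600 to 0.346 with 1 left out. VAC14 was at 0.00615 with DESeq2, 0.00614 with relative log expression factors, 0.0926 with upper quartile factors, 0.0137 with 10 reads in every sample, -0.31 with the GC and length offsets, where it passed, and -0.0689 to 0.0758 with 1 left out. B4GALT1-AS1 was at -0.134 to 0.619 with 1 left out. The cause was not tested. With the replicate block 91 antisense RNAs were higher and 22 lower, the median was 0.32, and VHL was at -0.33. Same-numbered samples correlated at 0.203, -0.097 and 0.075 after removal of the group means. VC replicates 1 and 3 correlated best with their own number, the latter at 0.075 against 0.074 for the next, and VC replicate 2 did not. With 3 samples per group, these values cannot decide whether same-numbered samples were handled together. At 50 or more reads 49 of 95 antisense RNAs were called higher, against 91 of 257 at 10 or more, and depth and size of the changes in this difference were not told apart.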

Other observations

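Other antisense-type genes with 10 or more reads in all samples were counted by edgeR without entering the pairs, beside 30.4% higher and 36.6% lower among all genes with that minimum. Of 81 divergent transcripts, named with the suffix DT, 36 were higher and 3 lower in VHL-KO cells, with a median log2 fold change of 0.50. Of 49 antisense symbols whose sense gene missed the minimum or was absent, 23 were higher and 7 lower (0.62). Of 8 intronic or overlapping transcripts (suffixes IT and OT), 2 were higher and 1 lower, and of 6 antisense symbols without a digit, 4 were higher and none lower. A further 166 antisense RNAs with a sense gene past the minimum reached 10 reads in some samples only, 38 of them under 10 in all VC samples and 40 under 10 in all VHL-KO samples.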
